A study of Mus musculus with 4 samples.

Results

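Transcripts of the augmin complex were examined in neurospheres, which are floating balls of cultured neural stem cells and progenitors. The set holds 8 of the 55599 entries of the gene table, taken by gene name with no filter on expression: Haus1, Haus2, Haus3, Haus4, Haus5, Haus6, Haus8 and Pstpip2. Haus1 and its neighbour Pstpip2 were selected on their measured counts, since Haus1 was high in a single knockout library and Pstpip2 was higher in knockout. Their difference between genotypes is therefore described without a test. The other Haus genes entered as subunits of the same complex, and Haus7, the remaining subunit, was not chosen but is given beside them.

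The cells were isolated from cortex at embryonic day 12.5, in the mouse strain C57BL/6, and profiled at passage 3. WT denotes wild-type cells and KO denotes LncBAR-KO cells, which lack the long noncoding RNA LncBAR. No other allele or agent is named for either genotype, and neither the way the knockout was made nor any pooling of embryos is given in the labels. Each genotype has 2 libraries, and whether these stem from different animals or cultures is not in the labels. A p-value here therefore reflects how much 2 such libraries differ, which may be technical.

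Augmin is a complex of 8 proteins that binds the side of an existing microtubule and recruits the gamma-tubulin ring complex, the nucleator from which a further microtubule branches off. It thickens the mitotic spindle in dividing cells and also seeds microtubules in neurons. In mouse neural progenitors, loss of the complex is known to delay mitosis and to trigger p53-dependent cell death. Haus6 and Haus8 form one module with Haus2 and Haus7, and Haus1, Haus3, Haus4 and Haus5 form the other. Pstpip2 is not an augmin subunit. It encodes an F-BAR protein, a membrane-bending adaptor that binds PEST-type tyrosine phosphatases and is known mainly from macrophages and neutrophils.

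The 4 libraries held 17244057 to 18280445 counts. Values per library are in CPM, which divides counts by a library size scaled with the TMM method, and levels of different genes are compared only per length, as FPKM or as CPM per kilobase of 1 transcript. Of the 10 neural stem and progenitor markers, 9 passed the expression filter, and their summed level was 2672 and 2779 FPKM in WT and 2872 and 2977 FPKM in KO. Emx1, a marker of the dorsal cortex in that list, had at most 6 counts in any library. Summed levels were 9.14 to 12.3 FPKM for 5 neuron markers, 0.556 to 0.684 FPKM for 5 endothelial markers and 717 to 776 FPKM for 5 oligodendrocyte lineage markers. Counts of Xist were 36766 and 31563 in WT but 7 and 4 in KO, while those of the Y-linked genes Ddx3y, Eif2s3y, Kdm5d and Uty were 0 in WT and 517 to 1847 in KO. Genotype and the sex-chromosome difference therefore cannot be told apart in any comparison below, and LncBAR itself was not analysed here.

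The upstream windows of Haus6 and Haus5 are shown because they were the ones among the subunits matched to RefSeq that hold no annotated exon. Each run is the 250 bases before the RefSeq start in build GRCm38.p6, on the minus strand, at chr4:86612056-86612305 for Haus6 and chr7:30664995-30665244 for Haus5. Capitals mark a CCAAT box, the letters bound by the factor NF-Y, on either strand.
Haus6: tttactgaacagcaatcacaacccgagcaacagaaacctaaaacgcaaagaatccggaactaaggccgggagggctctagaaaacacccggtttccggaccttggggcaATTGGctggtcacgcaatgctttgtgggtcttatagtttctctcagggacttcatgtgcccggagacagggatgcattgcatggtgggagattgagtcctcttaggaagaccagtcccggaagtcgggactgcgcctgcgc
Haus5: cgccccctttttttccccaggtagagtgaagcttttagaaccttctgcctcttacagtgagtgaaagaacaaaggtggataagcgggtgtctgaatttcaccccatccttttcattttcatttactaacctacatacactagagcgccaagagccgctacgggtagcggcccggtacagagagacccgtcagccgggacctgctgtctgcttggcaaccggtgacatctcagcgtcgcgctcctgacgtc
The Haus6 window holds 1 CCAAT box, on the opposite strand, and the Haus5 window holds 0. Of 32851 RefSeq windows of this length, 33.8% hold at least 1. The CHR element of cell cycle genes, searched as TTTGAA on both strands, was in neither window and in 16% of all windows. The windows of Haus2, Haus3, Haus4, Haus7 and Haus8 overlap annotated exons and are not shown. Those of Haus2 (both starts) and Haus8 hold 0 CCAAT boxes, those of Haus4 and Haus7 hold 1 each, and that of Haus3 holds 2. The share of G and C was 53.6% for Haus6 and 53.2% for Haus5, against a median of 52.4% over all windows. It was higher in the windows that overlap exons, from 61.2% for Haus4 to 72.0% for Haus8.

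Transcripts of 7 of the 8 augmin subunits were present at steady levels in all libraries, and those of Haus1 were not. By deposited FPKM, Haus2 was highest at 16.1 ± 1.14 (mean ± SD over the 4 libraries), followed by Haus7 at 15.5 ± 1.33, Haus4 at 10.1 ± 1.59, Haus6 at 6.89 ± 0.487, Haus3 at 6.68 ± 0.178, Haus8 at 4.43 ± 0.227, Haus5 at 1.67 ± 0.153 and Haus1 at 0.610 ± 0.959. The ranges of Haus2 and Haus7, of Haus6 and Haus3, and of Haus5 and Haus1 overlapped, so the order within these pairs lies within the spread. The range of Haus1 reached that of Haus5 through KO replicate 1 alone.

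Much of that order follows the gene length used. The length in the table equals the summed exons of all annotated isoforms, 7167 bases for Haus1 and 5278 for Haus8, while their principal GENCODE M21 transcripts have 1003 and 1452 bases. For Haus1 the difference lies in an isoform that retains introns and has an exon of 6640 bases. With CPM per kilobase of the principal transcript, Haus2, Haus7, Haus8, Haus4 and Haus3 stood at 16.6, 16.3, 16.3, 15.2 and 12.6, and each overlapped the next in range. Haus6 stood at 7.31 and Haus5 at 2.67 on that scale, below these 5, whereas by deposited FPKM Haus6 had ranked above Haus3 and Haus8. Haus1 stood at 4.41 there, with a range from 0.810 to 14.8.

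**Figure D1:**
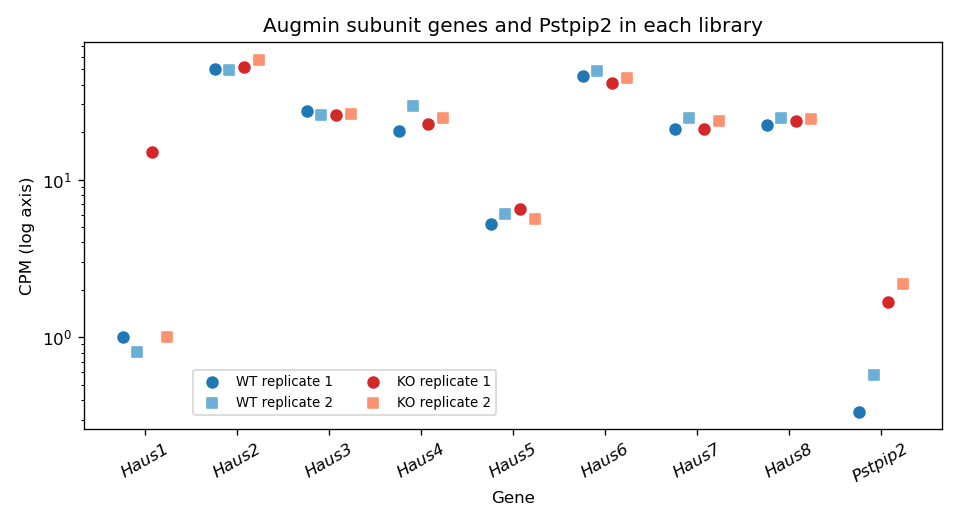
CPM of each augmin subunit gene and Pstpip2 in each of the 4 libraries, on a log axis, with 1 point per library. The points of Haus2 to Haus8 lie close together within each gene, Haus1 stands at 14.9 CPM in KO replicate 1 and at 0.812 to 1.01 CPM elsewhere, and both KO points of Pstpip2 lie above both WT points.

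Among the microtubule-binding module, Haus6, the subunit through which augmin contacts the gamma-tubulin ring complex, had 45.6 and 48.9 CPM in WT replicates 1 and 2 and 41.2 and 44.3 CPM in KO replicates 1 and 2. Both KO libraries were lower than both WT libraries. Its log2 fold change, KO over WT, was -0.14 ± 0.09 (SE), with an adjusted p of 0.835 in edgeR's quasi-likelihood test. Haus8, the subunit that binds the microtubule directly, had 22.1 and 24.7 CPM in WT and 23.4 and 24.3 CPM in KO. Both KO values lay between the WT values, and the log2 fold change was 0.03 ± 0.11 (edgeR adjusted p = 0.972). Its exons overlap those of Myo9b, an unconventional myosin gene on the opposite strand, over 116 bases, 2.2% of the exons of Haus8. The libraries do not keep strand, so reads in that stretch cannot be assigned.

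Haus2, of the same module, had 50.6 and 49.7 CPM in WT and 51.5 and 57.4 CPM in KO. Both KO libraries were higher than both WT libraries, and KO replicate 2 accounts for most of the gap. The log2 fold change was 0.12 ± 0.09 (edgeR adjusted p = 0.848). Haus2 overlaps Lrrc57, a leucine-rich repeat gene on the opposite strand, over 138 exonic bases, and Lrrc57 was also highest in KO replicate 2, at 31.7 CPM against 23.8 to 26.6 CPM in the others. Haus7, which lies on the X chromosome, had 21 and 24.7 CPM in WT and 20.8 and 23.5 CPM in KO. The groups overlapped, with a log2 fold change of -0.04 ± 0.12 (edgeR adjusted p = 0.964).

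In the other module, Haus3 had 27.1 and 25.6 CPM in WT and 25.6 and 26.2 CPM in KO. It varied least of all members, with a coefficient of variation of 2.78% over the 4 libraries, and its log2 fold change was -0.03 ± 0.10 (edgeR adjusted p = 0.972). Haus3 overlaps the span of Poln, a DNA polymerase gene on the same strand, over 15569 bases, most of its own span. Poln had only 30 to 66 counts and shares 108 exonic bases with Haus3. Haus4 had 20.4 and 29.2 CPM in WT and 22.6 and 24.5 CPM in KO. The WT libraries differed more from each other than either KO library differed from them, and the log2 fold change was -0.08 ± 0.16 (edgeR adjusted p = 0.945). Haus5, the subunit of lowest level among those tested, had 5.23 and 6.03 CPM in WT and 6.48 and 5.64 CPM in KO. The groups overlapped, with a log2 fold change of 0.11 ± 0.21 (edgeR adjusted p = 0.943). Gm21982, a noncoding gene on the same strand, covers 56.5% of the exons of Haus5 and was given 0 to 2 counts, so the reads of the pair may not be fully separated. Whether this lowers the count of Haus5 was not tested.

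Of the 8 members, 6 passed the expression filter, a mean of at least 1 FPKM over the 4 libraries, and 0 of these 6 passed an adjusted p of 0.05 in edgeR. At an unadjusted p under 0.05 the count was 0 as well, and DESeq2 and limma on log2(FPKM + 1) also called 0. Over all 12997 genes tested, 0.0692% passed, 0.0385% higher and 0.0308% lower in KO, so no call among 6 genes is what that background gives. Of the genes that passed, 0 lie on autosomes, where all 6 of these members lie. The median log2 fold change of the 6 was 0.0013, beside 0.003 over all genes tested, with 3 positive and 3 negative. For each of the 7 tested subunits, Haus7 included, the 95% interval excluded a 2-fold change in either direction. The widest was that of Haus5, from -0.35 to 0.56 on the log2 scale, and the one of Haus6 ran from -0.34 to 0.06. The groups did not overlap for 2 of the 6, Haus2 and Haus6, against 36.8% of all genes tested. None of the 6 tested members thus showed a difference between genotypes that passed the test. The intervals are per gene and not adjusted for the number of genes tested, so they do not give the smallest change that would have passed. Changes inside them remain possible with 2 libraries per genotype.

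**Figure D2:**
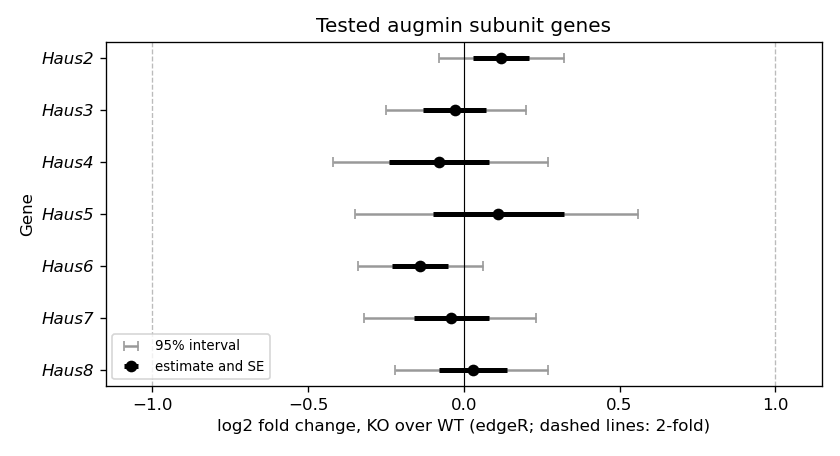
Log2 fold change, KO over WT, of the 7 tested augmin subunit genes from edgeR, with the SE as a thick bar and the 95% interval as a thin bar. Dashed lines mark a 2-fold change; each interval lies inside them and includes 0.

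Variation of the tested members from library to library lay mostly within the range of genes of like level. Their coefficients of variation over the 4 libraries ran from 2.78% for Haus3 to 15.6% for Haus4. The 6059 tested genes with mean counts between those of Haus5 and Haus2 had a median of 8.13%, with 5% of them below 2.87% and 5% above 19.4%. The summed FPKM of the 7 subunits other than Haus1 was 57.8 and 64.8 in WT, and the KO libraries had 58.5 and 64.0. This sum, which leaves out Haus1, differed more within a genotype than between genotypes.

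Haus1, a coiled-coil subunit of the complex, did not hold a steady level, as KO replicate 1 stood far above the other 3 libraries. It had 18 and 14 counts in WT replicates 1 and 2, 257 counts in KO replicate 1 and 18 counts in KO replicate 2, or 1.01, 0.812, 14.9 and 1.01 CPM. KO replicate 2 thus lay at the WT level, and the groups overlapped. KO replicate 1 stood at 15.8 times the mean of the other 3 libraries, and these are the values for which the gene was chosen. The ratio of KO to WT was 8.70 with all libraries and 1.1 without KO replicate 1. Of the other augmin subunits only Haus5 was highest in that library, at 6.48 CPM, with 5.23 to 6.03 CPM in the other 3. Haus1 averaged 0.610 FPKM and did not reach the expression filter. Per kilobase of the principal transcript, KO replicate 1 stood at 14.8 CPM, between the means of Haus3 at 12.6 and Haus4 at 15.2. The lowest Haus1 library stood at 0.810 on that scale, below the mean of Haus5 at 2.67. Whether the high library or the low ones show the usual level of Haus1 was not tested.

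Entries with a pattern nearest to that of Haus1 are given as a description. The ratio of the highest library to the mean of the other 3 had a median of 1.11 over tested genes with a mean of at least 1 CPM. Genes of closest pattern were taken as the 5 of highest ratio among tested genes that were also highest in KO replicate 1, so entries below the expression filter, as Haus1 is, were not among the candidates. They were Gm44126 (ratio 3.63), Kdm5d (3.07), Uty (3.02), an unnamed locus on an assembly patch (2.82) and Gm50340 (2.81). Gm44126, a processed pseudogene, had 22 and 36 counts in WT against 94 and 21 in KO. Gm50340, a noncoding gene, had 16 and 12 counts in WT against 34 and 9 in KO. The unnamed locus had 25 and 27 counts in WT against 112 and 70 in KO. Kdm5d and Uty enter this list because they had 0 counts in both WT libraries, and they were equally high in both KO libraries. Of these 5, Gm44126 and Gm50340 were high in KO replicate 1 alone.

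On chromosome 18, Haus1 spans 77757567 to 77773886 on the minus strand in mm10, and Pstpip2 starts 16028 bases further on and spans 77789914 to 77882879 on the plus strand. The table also holds an unnamed entry on an assembly patch, an alternative version of a stretch of a chromosome. That entry is numbered 77794335 to 77883752 on the plus strand, and the authors' deposited table describes it as carrying an F-BAR domain, the domain of Pstpip2. Not given in the sources used here is how far that patch extends, or how reads that match it and the chromosome equally well were handled.

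Pstpip2 was low in all libraries and higher in KO. It had 6 and 10 counts in WT against 29 and 39 counts in KO, or 0.337 and 0.580 CPM against 1.68 and 2.18 CPM, with a ratio of KO to WT of 4.2. Both KO libraries were above both WT libraries. The unnamed patch entry had 44 and 24 counts in WT against 44 and 32 in KO, with overlapping groups and a ratio of 1.12. The part of the summed counts that was assigned to Pstpip2 was 12% and 29.4% in WT but 39.7% and 54.9% in KO. Summed over the pair, the counts were 50 and 34 in WT against 73 and 71 in KO, 2.39 ± 0.592 CPM against 4.09 ± 0.181 CPM (SD, n = 2 libraries each). The ratio fell from 4.2 to 1.71 with this sum, which was chosen after the values were seen, and the groups did not overlap. The sum contains the Pstpip2 counts for which the gene was chosen, and the groups did not overlap for 36.8% of all genes tested. Pstpip2 averaged 0.505 FPKM and the patch entry 0.605 FPKM, so neither reached the expression filter.

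**Figure D3:**
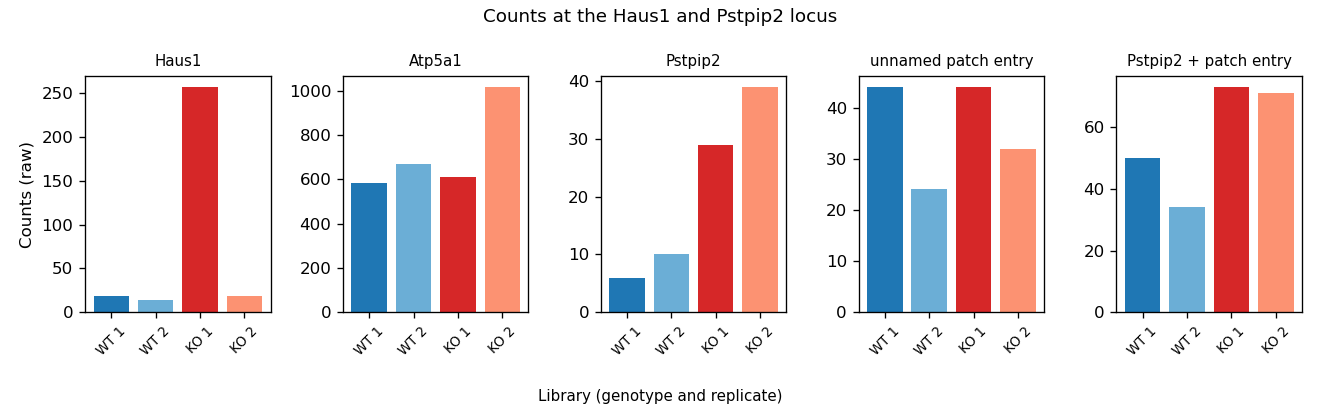
Raw counts in each library for Haus1, Atp5a1, Pstpip2, the unnamed patch entry and the sum of the last pair, each panel with its own axis from 0. Haus1 is high in KO replicate 1 only, Atp5a1 is highest in KO replicate 2, and the KO libraries exceed the WT libraries for Pstpip2 and for the sum but not for the patch entry.

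Pstpip2 is known from myeloid cells, so their markers are given beside it. Of 13 markers of microglia and other myeloid cells, 12 had at most 10 counts in every library, and 6 (Trem2, Tyrobp, Itgam, C1qa, C1qb and C1qc) had 0 counts in all 4 libraries. Csf1r, the receptor that macrophages and microglia depend on, had 0 and 1 counts in WT against 4 and 3 in KO. Ptprc had 0 counts in both WT libraries and 1 and 2 in KO, whereas Aif1 had 1 and 2 counts in WT against 0 and 1 in KO. Fcer1g, with 5 and 3 against 4 and 7 counts, and Cx3cr1, with 0 and 1 against 1 and 5, did not separate the genotypes. Counts as low as those of these markers cannot show a difference between genotypes. The marker above 10 counts was Cd68, a lysosomal protein found in other cells as well, with 74 and 89 counts in WT against 102 and 92 in KO. The summed level of the list was 3.61 and 4.36 FPKM in WT against 4.95 and 4.67 FPKM in KO, and Cd68 alone averaged 4.01 FPKM over the 4 libraries. In bulk RNA, more cells of a type and more RNA per cell cannot be told apart, and the part of these markers in the Pstpip2 difference was not tested.

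Of the other genes within 500 kb of Haus1, only Atp5a1 and Rnf165 reached the expression filter, and neither passed the test. None of the other measured genes there was high in KO replicate 1 alone. Within 500 kb of Haus1 the table lists 17 other entries, 10 of them protein-coding, and 8 entries had 0 counts in all libraries. The 4 with at least 50 counts in a library were Atp5a1, Rnf165, St8sia5 and Slc14a2. Atp5a1, the alpha subunit of the mitochondrial ATP synthase, overlaps the 5' exon of a Haus1 isoform over 129 exonic bases on the opposite strand. It had 32.9 and 38.9 CPM in WT and 35.4 and 56.7 CPM in KO, so that its highest library was KO replicate 2 and not the library in which Haus1 was high (log2 fold change 0.36 ± 0.18, edgeR adjusted p = 0.813). Rnf165, a ubiquitin ligase gene on the other side of Haus1, had 37.7 and 34.9 CPM in WT and 32.0 and 29.7 CPM in KO (-0.23 ± 0.10, edgeR adjusted p = 0.811). St8sia5, a sialyltransferase gene, had 2.87 and 1.57 CPM in WT and 3.53 and 2.96 CPM in KO. Slc14a2, a urea transporter gene, had 3.03 and 3.54 CPM in WT and 2.49 and 1.95 CPM in KO. Neither of the last pair reached the expression filter.

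Among genes of general function at this locus, Epg5 had no counts and Atp5a1 was low beside other subunits of its enzyme. Atp5a1 itself averaged 12.9 FPKM, between Haus4 at 10.1 FPKM and Haus7 at 15.5 FPKM. Epg5, an autophagy gene that lies 164579 bases beyond Haus1, had 0 counts in all 4 libraries, which allows up to 3 counts per library from counting error alone. Atp5a1 reached at most 18 FPKM, while its partner subunits of the same enzyme, chosen after the values were seen, had at least 411 FPKM (Atp5b), 166 FPKM (Atp5c1) and 129 FPKM (Atp5d). Haus1 had 2.05 FPKM in KO replicate 1 and 0.112 to 0.140 FPKM in the other 3 libraries.

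No partner of augmin on the spindle passed the test in the fit of all 4 libraries. The gamma-tubulin ring complex and the proteins that attach it had 14 of 14 genes tested, of which 0 passed in edgeR in either direction (adjusted p of 0.811 and above). Their median log2 fold change was -0.03, with 7 positive and 7 negative, beside 0.003 over all genes tested. Tubg1, the gamma-tubulin itself, had 85.8 and 90.8 CPM in WT and 85.2 and 92.3 CPM in KO. Mzt1, a small subunit of the ring, had 68.3 and 66.3 CPM in WT and 72.5 and 72.9 CPM in KO (0.11 ± 0.08, edgeR adjusted p = 0.840). The groups did not overlap for 6 genes that were lower and 1 that was higher in KO, beside 18.7% and 18.1% of all genes tested. Nedd1, the adaptor that links the ring complex to augmin, had a log2 fold change of 0.06 ± 0.11 (edgeR adjusted p = 0.933).

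Spindle assembly genes had 18 of 18 genes tested and 0 passed in edgeR (adjusted p of 0.756 and above). The median log2 fold change was -0.04, with 5 positive and 13 negative, and 6 genes had groups that did not overlap, all lower in KO, beside 18.7% of all genes tested that were lower and 18.1% that were higher without overlap. Ran, the GTPase that signals spindle assembly near chromatin, had 497 and 535 CPM in WT and 501 and 592 CPM in KO. Kpna2, an importin that holds spindle factors inactive, had 212 and 259 CPM in WT and 209.6 and 253 CPM in KO. For both genes the second replicate was higher in each genotype, and the groups overlapped. The lowest fold change in the list was that of Kif11, the motor that slides spindle microtubules apart, at 23.5 and 26.6 CPM in WT and 18.3 and 13.4 CPM in KO (-0.66 ± 0.15, edgeR adjusted p = 0.756). Without WT replicate 1 it passed (edgeR adjusted p = 0.00177), with adjusted p of 0.0608 to 0.999 for the lowest of the list when any other library was left out. The lone library of a genotype is in such a fit assumed to vary like the other pair.

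**Figure D4:**
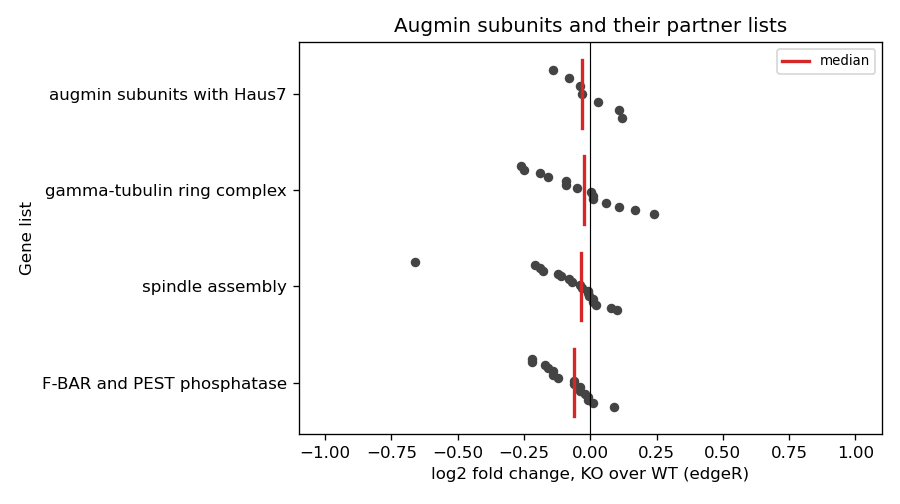
Log2 fold change, KO over WT, of every tested gene in 4 groups, with 1 point per gene and the median as a red line. The medians are -0.03 for the 7 tested augmin subunits, -0.03 for the gamma-tubulin ring complex, -0.04 for spindle assembly and -0.06 for F-BAR and PEST phosphatase genes; Kif11 is the isolated point at -0.66.

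No tested relative or partner of Pstpip2 passed the test. Of 22 other F-BAR and PEST phosphatase genes, 16 reached the expression filter and 6 did not, and edgeR called 0 of the 16 (adjusted p of 0.811 and above). The median log2 fold change was -0.06, beside 0.003 over all genes tested, with 2 positive and 14 negative. Groups without overlap were seen for 6 genes lower and 1 gene higher in KO, beside 18.7% and 18.1% of all genes tested. Srgap2, an F-BAR protein that shapes neuronal branches and spines, had 346 and 366 CPM in WT and 313 and 301 CPM in KO (-0.22 ± 0.08, edgeR adjusted p = 0.811). Fnbp1, which links membranes to actin assembly, had 249 and 256 CPM in WT and 250.3 and 253 CPM in KO. Pstpip1, the closest relative of Pstpip2, had 34 and 41 counts in WT against 23 and 18 in KO, the opposite direction to Pstpip2, at a level below the filter. Ptpn12, a PEST phosphatase to which these adaptors bind, had 1116 and 1131 counts in WT against 1091 and 1185 in KO, with overlapping groups.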

How the data were processed

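Polyadenylated RNA of 2 WT and 2 KO neurosphere libraries was sequenced without keeping strand, per the labels' protocols. The submitters' processing notes name mm10, cutadapt 1.16, TopHat2 2.1.1 and Cufflinks 2.2.1. Not given in the sources used here are the counting tool, the annotation release and how reads with several matches were handled. The authors deposited 1 table with whole-number counts per gene and library and FPKM values scaled by gene length and library size. It also gives mean signal per genotype, a log2 fold change and a p-value for KO against WT, per the file headers, which were not used. Of the 55599 entries, 54899 have the coordinates of GENCODE M21, the 8 members and Haus7 among them.

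The Haus genes and the gene lists were chosen with earlier results of these data known. The 12997 genes whose deposited FPKM averaged 1 or more were tested with edgeR 4.0.16 (R 4.3.3) on TMM-scaled counts, with genotype as factor and Benjamini-Hochberg adjustment over all of them. The SE is the absolute log2 fold change over the root of F, and intervals use 2 residual and 8.39 prior degrees of freedom. The steps were tested on simulated data. Named genes were the members, all list members that passed or otherwise the 2 of highest mean FPKM, neighbours of Haus1 within 500 kb with at least 50 counts in a library, and the 5 genes of closest pattern. Kif11, Nedd1, Ptpn12, Pstpip1, Epg5 and the other ATP synthase subunits were named after their values were seen. Alternatives were DESeq2 1.42.0, limma 3.58.1 on log2(FPKM + 1), other scaling and filters, a replicate block and leaving out each library. No pair of libraries agreed within sampling noise (chi-square over its degrees of freedom from 7.68 to 17.7). Counting limits cover counting error only, as the reads carry no molecular identifiers and are not independent molecules.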

Additional observations from a re-analysis of the deposited data

How the results depend on the processing

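For the 6 tested members, edgeR, DESeq2 and limma called 0 under every alternative run, with the lowest adjusted p of any member between 0.461 and 1.0; at a mean FPKM of at least 5 only 4 of them were tested. Of 75 fold changes of the 7 tested subunits under alternatives, 69 kept their sign and 6 turned, all on leaving out 1 library, where Haus3 ranged from -0.07 to 0.02, Haus4 from -0.31 to 0.21, Haus7 from -0.16 to 0.08 and Haus8 from -0.05 to 0.11. The turned values were Haus3 at 0.02 and Haus8 at -0.05 without WT replicate 1, Haus4 at 0.21 and Haus7 at 0.08 without WT replicate 2, Haus7 at 0.04 without KO replicate 1 and Haus8 at -0.0027 without KO replicate 2. The number of genes called in the whole table was 9, and it was 31 without the expression filter, 5 in limma on log2(FPKM + 1), 24 with a replicate block and 15 to 86 on leaving out 1 library; the cause was not tested. Same-numbered libraries of the genotypes deviated with a correlation of 0.135, nothing in the labels pairs them, and the replicate block called 0 tested members. The spindle assembly list had 0 to 1 calls on leaving out 1 library. The ratio of the highest Haus1 library to the mean of the others was 15.7 to 15.8 under other scalings and 1.11 to 16.4 on leaving out 1 library, the lowest without KO replicate 1. The ratio of KO to WT for Pstpip2 was 3.32 to 5.72 on leaving out 1 library and 1.71 when summed with the patch entry. Counts of 6 to 39 for Pstpip2 limit how precisely its ratio is known, and 2 libraries per genotype limit every test here.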
